A study of Mus musculus with 11 samples.

Results

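The 9 genes described here mark GABAergic interneurons, the inhibitory nerve cells of the hippocampus. They are Gad1, Gad2, Slc32a1, Pvalb, Lhx6, Reln, Erbb4, Cnr1 and Nxph1, chosen by symbol as known markers, out of 48709 gene identifiers in the count files. All 9 were among the 17293 genes that passed the filter on low counts. Bulk RNA-seq covered hippocampal CA1, a field needed for memory, with 6 libraries of mice carrying the CamkdeltaC transgene and 5 of littermates with the genotype label control, at 3 months of age. CamkdeltaC is a splice form of calcium/calmodulin-dependent protein kinase II delta. The line is known as a model of heart failure whose transgene is driven by a heart promoter, and the labels name neither promoter nor strain. Both sexes were used, and a library's own sex, litter and batch are not labelled. The labels also leave unsaid whether libraries come from different animals, so p-values reflect spread among these libraries alone, and that spread may be technical. Values written with ± are means and SD over the 6 transgenic or the 5 control libraries.

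Interneurons make GABA from glutamate with the decarboxylases GAD67 (Gad1) and GAD65 (Gad2), and load it into vesicles with the transporter VGAT (Slc32a1). Most cells of the medial ganglionic eminence lineage keep the transcription factor Lhx6, and the fast-spiking basket and axo-axonic cells among them contain the calcium buffer parvalbumin (Pvalb). Other members mark further classes or their signalling, namely the secreted glycoprotein reelin (Reln), the neuregulin receptor ErbB4, the cannabinoid receptor CB1 (Cnr1), rich on the terminals of cholecystokinin basket cells, and the neurexin ligand neurexophilin 1 (Nxph1).

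Total counts were 24403918 to 34153726 in transgenic libraries and 14263784 to 36898689 in controls, the lowest being control 5. Every member had at least 322 reads in each library. Camk2d did not pass the test in CA1, at 67.8 ± 36.7 CPM, the reads of a gene scaled to library size, in transgenic libraries and 72.0 ± 18.6 CPM in controls, with an edgeR adjusted p of 0.873. A transgene driven in the heart gives no check of the labels here. The summed level of 9 CA1 pyramidal markers was 2468 to 3226 CPM in transgenic libraries and 2431 to 2875 CPM in controls. Of the 9, Ndst4 alone was called, at 67.0 CPM in transgenic libraries and 91.1 CPM in controls (adjusted p 0.0317), and it was at -0.05 after correction for GC content as described below. Wfs1 was at 341 CPM in transgenic libraries and 255 CPM in controls, and Fibcd1 at 246 and 224 CPM. The summed level of 8 dentate granule markers was 86.2 to 233 CPM in transgenic libraries and 92.2 to 286 CPM in controls, and none of them was called. Among 10 microglia markers 5 were higher in transgenic libraries, with summed levels of 320 to 429 CPM against 286 to 347 CPM in controls. Among 10 endothelial and mural markers 2 were lower, with sums of 213 to 259 CPM in transgenic libraries against 234 to 306 CPM in controls. Among 10 astrocyte markers 2 were higher and 1 lower, with sums of 5706 to 6627 CPM in transgenic libraries and 6159 to 7001 CPM in controls. None of 11 oligodendrocyte lineage markers was called, at sums of 3792 to 6341 CPM in transgenic libraries and 3168 to 5235 CPM in controls. Of all genes tested 7.41% were higher and 10.5% lower, and after correction for GC content no marker of these cell types was called. The part of these cell types in the results below was not tested.

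In transgenic CA1, 3 of the 9 genes passed the test and they did not go the same way. Erbb4 fell by 0.58 and Cnr1 by 0.40 on the log2 scale, and Slc32a1 rose by 0.22. The other 6 genes, among them both GABA-synthesising enzymes, did not pass. The share of all 17293 tested genes called was 17.9% (7.41% higher and 10.5% lower in transgenic libraries). Calls used edgeR's quasi-likelihood test on raw counts with a Benjamini-Hochberg adjusted p under 0.05 over all genes. In bulk tissue, fewer cells of a type and less RNA per cell cannot be told apart. The median log2 fold change was -0.08 over the 9 genes and 0.01 over all genes tested.

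Fold changes over all genes followed the base composition of the transcripts. Within each library, the deviation of genes from their mean over the 11 libraries had a trend with transcript GC content. Its slope differed between the groups. The slope ran from -0.06 to 0.27 log2 CPM per 10 GC points in transgenic libraries and from -0.22 to -0.06 in controls. These slopes are relative to the mean of the 11 libraries, so positive slopes in some libraries come with negative slopes in others. Erbb4 had the lowest GC content of the 9, at 40.6% of its longest transcript, and Slc32a1 the highest, at 61.9%. Cnr1 stood at 44.9%. Once this trend was taken out of every library (GC removal), none of the 9 genes was called, against 1.98% of all genes (1.16% higher and 0.821% lower). With a length trend removed as well none was called either, against 1.7% of all genes (1.16% higher and 0.544% lower). After GC removal alone Erbb4 was at -0.29, Cnr1 at -0.27 and Slc32a1 at 0.0026. The source of the trend was not tested.

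The 250 bases before the RefSeq transcription start of the 3 called genes are shown to set the composition of their start regions beside the transcript GC content described above. They are written 5′ to 3′ on the gene's strand, on build GRCm38.p6, with each CG pair in capitals. They lie at chr2:158610508-158610757 on the plus strand for Slc32a1, chr1:69108060-69108309 on the minus strand for Erbb4 and chr4:33924394-33924643 on the plus strand for Cnr1.
Slc32a1: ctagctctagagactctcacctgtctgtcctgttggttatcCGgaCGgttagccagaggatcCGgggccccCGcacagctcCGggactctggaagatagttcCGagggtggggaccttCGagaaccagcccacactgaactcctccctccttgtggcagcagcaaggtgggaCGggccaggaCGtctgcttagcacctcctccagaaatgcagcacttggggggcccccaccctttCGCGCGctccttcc
Erbb4: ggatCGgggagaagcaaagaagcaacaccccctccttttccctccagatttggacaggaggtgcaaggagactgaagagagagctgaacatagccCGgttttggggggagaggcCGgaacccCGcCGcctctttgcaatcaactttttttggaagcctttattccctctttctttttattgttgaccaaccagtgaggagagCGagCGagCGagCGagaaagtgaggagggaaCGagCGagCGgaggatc
Cnr1: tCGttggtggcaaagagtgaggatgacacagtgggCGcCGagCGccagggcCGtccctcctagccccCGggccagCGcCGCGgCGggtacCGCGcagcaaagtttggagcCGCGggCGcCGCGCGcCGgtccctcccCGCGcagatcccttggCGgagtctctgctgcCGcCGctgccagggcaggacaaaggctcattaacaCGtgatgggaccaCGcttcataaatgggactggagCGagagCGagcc
The Cnr1 window had 68.8% GC and 28 CG pairs, a number that 7.61% of 32841 RefSeq start windows of this length reached. Slc32a1 and Erbb4 each had 12 CG pairs, which 33.5% of windows reached, at 62.4% and 54.0% GC. The median window had 6 pairs. The motif is CG, which reads the same on both strands. Cnr1 thus had a GC-rich start and a transcript of lower GC than the median of all genes tested, 49.6%. RefSeq lists 3 start windows for Cnr1, and the one nearest the annotated gene start is shown. The counts per gene do not separate starts.

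**Figure D1:**
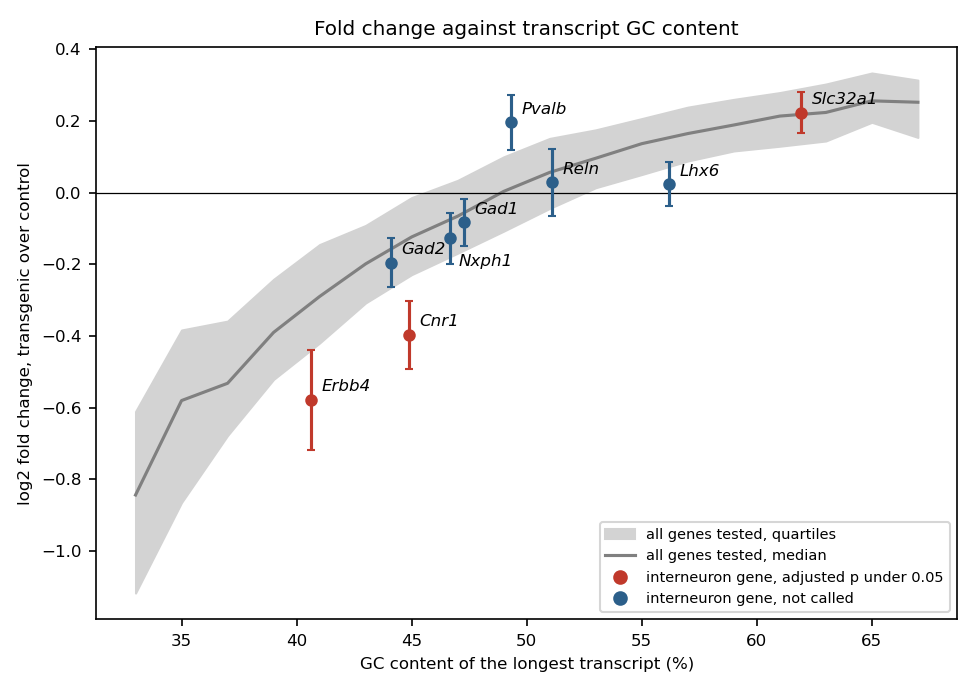
Log2 fold change, transgenic over control, against the GC content of the longest transcript in percent. Points are the 9 genes with their standard errors, the line is the median and the band the quartiles of all genes tested in bins of 2 GC points. Slc32a1 lies on the line, at 0.22, while Erbb4, Cnr1 and Lhx6 lie below the band and Pvalb above it.

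GABA synthesis. Gad1 (ENSMUSG00000070880, chromosome 2, 70553072 to 70602014, plus strand, build mm10) encodes the decarboxylase that is found through the whole interneuron. Its lowest, median and highest levels were 321, 351 and 413 CPM in transgenic libraries, against 344, 394, 395, 391 and 366 CPM in control 1 to 5. The ranges overlapped. Its log2 fold change was -0.08 (SE 0.07), with an edgeR adjusted p of 0.398. Gad2 (ENSMUSG00000026787, chromosome 2, 22622205 to 22693874, plus strand) encodes the terminal form of the enzyme. It had 163, 178 and 211 CPM as lowest, median and highest levels in transgenic libraries, against 189, 200, 210, 224 and 210 CPM in control 1 to 5. In 5 of the 6 transgenic libraries Gad2 was below every control. Gad2 had a log2 fold change of -0.19 (SE 0.07) and an adjusted p of 0.0629. Gad2 was called without transgenic 6, at -0.25 with an adjusted p of 0.00762, and in a fit with Xist as covariate, at -0.21 with an adjusted p of 0.0438. It was also called by DESeq2 (adjusted p 0.0349) and by limma voom with sample weights (adjusted p 0.0211). In the other 10 fits that left out a library without GC removal Gad2 was not called, with adjusted p up to 0.152. Of the 8 other alternatives without GC removal 4 called it and 4 did not, with adjusted p up to 0.106. The authors' deposited table lists Gad2 as lower, at -0.19 with an adjusted p of 0.0330. Gad2 was at -0.04 with the GC trend removed (adjusted p 0.702).

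The ratio of Gad1 to Gad2 within a library hardly depends on library scaling. On the log2 scale it was 0.99 ± 0.06 in transgenic libraries and 0.87 ± 0.08 in controls. The difference of 0.11 had a p of 0.0238 in a two-sided exact permutation test over libraries, whose smallest possible p is 0.00216. The ranges overlapped, at 0.89 to 1.05 in transgenic libraries and 0.80 to 0.98 in controls. Leaving out transgenic 2 or 5 or control 1, 4 or 5 moved the exact permutation p to 0.0524 to 0.0619. After GC removal the difference was 0.0077 and the exact permutation p 0.866. The Gad1 transcript has 47.3% GC and that of Gad2 44.1%.

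GABA loading. Slc32a1 (ENSMUSG00000037771, chromosome 2, 158610767 to 158615748, plus strand) encodes the vesicular transporter of GABA and glycine. Its lowest, median and highest levels were 80.3, 85.7 and 89.7 CPM in transgenic libraries, against 70.3, 80.6, 65.6, 73.6 and 74.5 CPM in control 1 to 5. All transgenic libraries but transgenic 6 were above every control, and control 2 was level with transgenic 6. Slc32a1 rose by 0.22 on the log2 scale (SE 0.06), with an edgeR adjusted p of 0.0209. The call was lost without transgenic 2 (adjusted p 0.0505) or transgenic 3 (adjusted p 0.0506). The authors' deposited table lists the gene as higher, at 0.22 with an adjusted p of 0.00482. Genes within 1 GC point of Slc32a1, 301 in number, had a median log2 fold change of 0.22, with quartiles of 0.15 and 0.30. After GC removal the 6 transgenic libraries ran from -0.06 to 0.07 and the controls from -0.09 to 0.11 around the control mean, on the log2 scale. Exons of Slc32a1 share 697 bases with Gm14205 on the opposite strand. The library kit does not mark strand, so reads of these 2 genes in the shared bases cannot be told apart.

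**Figure D2:**
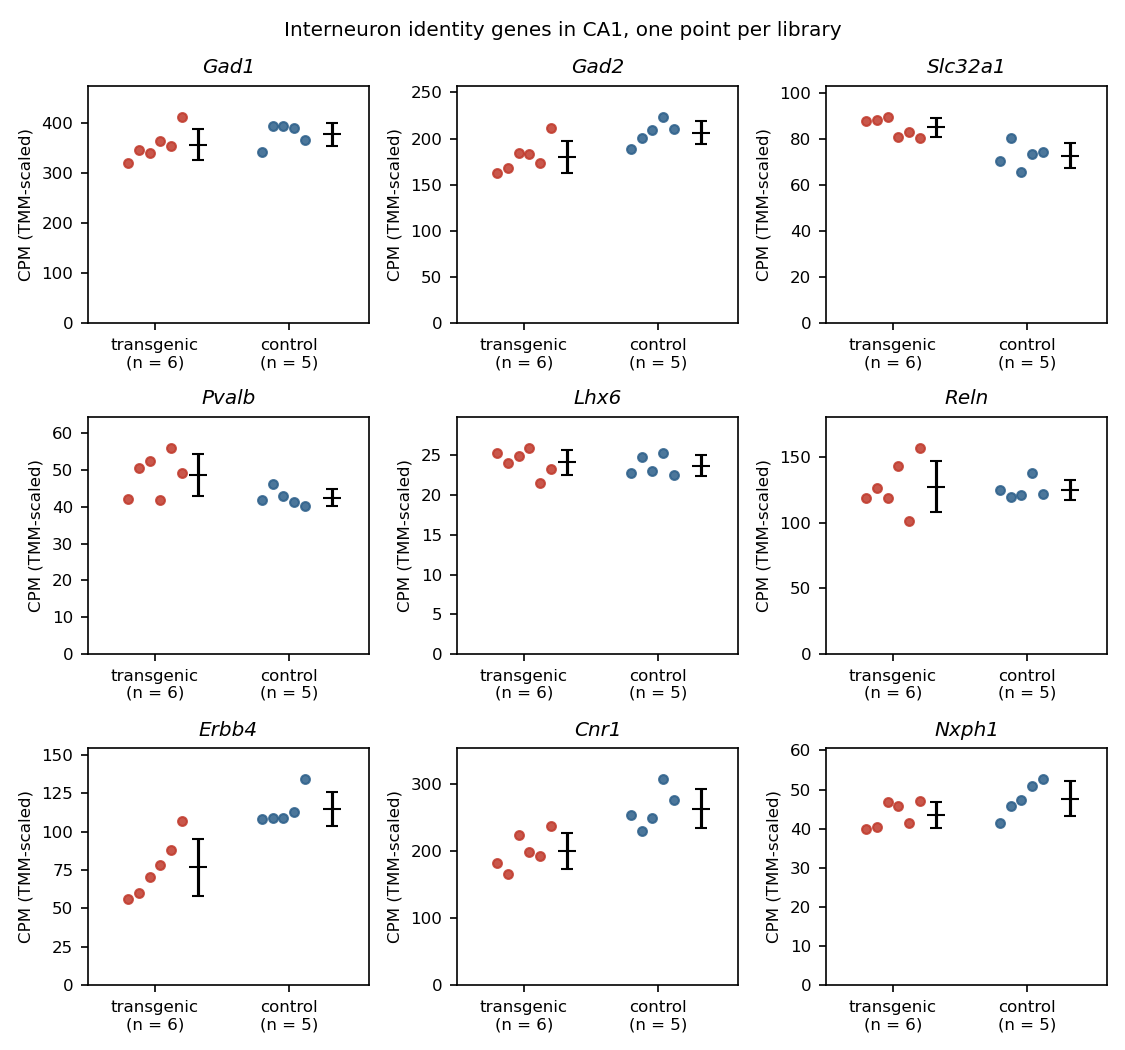
TMM-scaled CPM of each gene, with 1 point per library and the mean ± SD beside the points, transgenic (n = 6) at left and control (n = 5) at right. All 6 transgenic points of Erbb4, from 56.1 to 107 CPM, lie below the lowest control at 108 CPM, while the groups of the other 8 genes overlap. The share of all genes tested whose groups lie apart is not given here.

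Lineage and the parvalbumin class. Lhx6 (ENSMUSG00000026890, chromosome 2, 36081953 to 36105408, minus strand) is required for the specification of parvalbumin and somatostatin cells. It had 21.6, 24.4 and 25.9 CPM as lowest, median and highest levels in transgenic libraries, against 22.8, 24.8, 23.1, 25.4 and 22.6 CPM in control 1 to 5. The control values lay inside the transgenic range. The log2 fold change was 0.02 (SE 0.06) and the adjusted p 0.816. Relative to the GC trend Lhx6 was at -0.13 (SE 0.06), with an adjusted p of 0.251. In that scale 5 of 6 transgenic libraries were below every control. Lhx6 shares 104 exon bases with Gm27953 on the same strand. Pvalb (ENSMUSG00000005716, chromosome 15, 78191114 to 78206400, minus strand) had lowest, median and highest levels of 41.8, 49.9 and 56.0 CPM in transgenic libraries, against 41.7, 46.3, 42.9, 41.2 and 40.2 CPM in control 1 to 5. In 4 transgenic libraries Pvalb was above every control, and transgenic 1 and 4 lay among the controls. The log2 fold change was 0.20 (SE 0.08) and the adjusted p 0.0904. After GC removal it was 0.19 (SE 0.08), with an adjusted p of 0.220. Pvalb has 49.3% GC, and the 1885 genes within 1 GC point of it had a median log2 fold change of 0.01. GC removal could thus move Pvalb little. With the length trend removed as well it was at 0.13 (adjusted p 0.424). The values of Gad2 and Slc32a1, with 44.1% and 61.9% GC, went close to 0 with GC removal.

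Reelin. Reln (ENSMUSG00000042453, chromosome 5, 21884454 to 22344702, minus strand) encodes a secreted protein made in the adult hippocampus by interneurons and by Cajal-Retzius cells. Its lowest, median and highest levels were 102, 123 and 157 CPM in transgenic libraries, against 125, 120, 121, 138 and 122 CPM in control 1 to 5. Transgenic libraries lay on both sides of the controls, 3 below all of them and 2 above. The SD was 19.7 CPM in transgenic libraries (n = 6) and 7.30 CPM in controls (n = 5). The log2 fold change was 0.03 (SE 0.09) and the adjusted p 0.851, and its sign depended on single libraries. The summed level of 8 Cajal-Retzius markers, 7 of them tested, was 43.3 to 71.2 CPM in transgenic libraries and 46.0 to 62.3 CPM in controls, and none of the 7 was called. Trp73, which defines these cells, was at 1.68 to 6.03 CPM over all libraries. Transgenic 6 and 4 had the highest Reln and the highest Cajal-Retzius sums, 71.2 and 66.4 CPM, and transgenic 5 the lowest of both. Most of that sum came from Ndnf and Calb2, which are also among the further interneuron markers below. Ndnf was at 30.0 CPM in transgenic libraries and 33.0 CPM in controls, and Calb2 at 13.6 and 12.8 CPM. The part of Cajal-Retzius cells in Reln levels was not tested. Reln shares 246 exon bases with Gm10475 on the opposite strand.

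ErbB4. Erbb4 (ENSMUSG00000062209, chromosome 1, 68032186 to 69108059, minus strand) encodes a receptor tyrosine kinase for neuregulins that in the hippocampus is found mainly in interneurons. Its level was 56.1, 60.2, 70.7, 77.9, 88.1 and 107 CPM in transgenic 1 to 6, against 108, 109, 109, 112 and 134 CPM in control 1 to 5. All transgenic libraries were below all controls, with transgenic 6 close to the lowest control. The share of all genes tested whose groups lie apart in this way is not given here. The mean was 76.6 ± 18.8 CPM in transgenic libraries and 115 ± 11.1 CPM in controls. Erbb4 had a log2 fold change of -0.58 (SE 0.14), with an edgeR adjusted p of 0.0181. This was the largest change of the 9, and its size exceeded that of 95.6% of all genes tested. The call was lost without control 5 (-0.52, adjusted p 0.0515). The authors' deposited table lists Erbb4 as lower, at -0.57 with an adjusted p of 0.000267.

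The level of Erbb4 in the transgenic libraries went with their GC slopes, which were 0.27, 0.26, 0.18, 0.10, 0.02 and -0.06 in transgenic 1 to 6. Among these 6, the library with the steepest slope had the lowest Erbb4 and that with the lowest slope the highest. Their order was also that of the library numbers, so slope and library number cannot be told apart. Slopes in control 1 to 5 were -0.12, -0.06, -0.20, -0.22 and -0.16, and Erbb4 did not follow them. Control 5, with the highest Erbb4, had the middle slope. The 1011 genes within 1 GC point of Erbb4 had a median log2 fold change of -0.31, with quartiles of -0.44 and -0.16, and 40.4% of them were called. After GC removal Erbb4 was at -0.29 (SE 0.09, adjusted p 0.0950). Then 5 of the 6 transgenic libraries were below every control, from -0.54 to -0.20 around the control mean on the log2 scale, and transgenic 6 stood at -0.02, among controls at -0.13 to 0.21. The exons of Erbb4 span 12355 bases. Removal of a length trend as well gave -0.23 (SE 0.08, adjusted p 0.184). When transgenic 6 was left out and the GC trend removed, Erbb4 was called, at -0.35 with an adjusted p of 0.0197. In the other 10 fits that left out a library after GC removal it was not called, and over all 11 it ran from -0.35 to -0.23 with adjusted p up to 0.233.

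CB1. Cnr1 (ENSMUSG00000044288, chromosome 4, 33924593 to 33948831, plus strand) encodes the receptor through which endocannabinoids lower transmitter release. Its level was 182, 165, 223, 198, 192 and 237 CPM in transgenic 1 to 6, against 253, 230, 248, 307 and 275 CPM in control 1 to 5. All transgenic libraries but transgenic 6 were below every control. The mean was 200 ± 26.8 CPM in transgenic libraries and 263 ± 29.5 CPM in controls. Cnr1 had a log2 fold change of -0.40 (SE 0.10), with an adjusted p of 0.0180. The call was lost without control 4 (-0.33, adjusted p 0.0520). The authors' deposited table gives -0.39 with an adjusted p of 0.00227. Genes within 1 GC point of Cnr1, 1655 in number, had a median of -0.13 with quartiles of -0.23 and -0.02. With the GC trend removed Cnr1 was at -0.27 (SE 0.08, adjusted p 0.0905), and 4 transgenic libraries were below every control. With the length trend removed as well it was at -0.26 (adjusted p 0.106). Without transgenic 6, and with the GC trend removed, Cnr1 was called at an adjusted p of 0.0381. In the other 10 such fits it was not called, and over all 11 it ran from -0.31 to -0.22 with adjusted p up to 0.213.

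Neurexophilin. Nxph1 (ENSMUSG00000046178, chromosome 6, 8948431 to 9249032, plus strand) encodes a secreted ligand of alpha-neurexins. Its lowest, median and highest levels were 39.8, 43.7 and 47.0 CPM in transgenic libraries, against 41.5, 45.7, 47.3, 51.0 and 52.7 CPM in control 1 to 5. The ranges overlapped, with 3 transgenic libraries below every control. The log2 fold change was -0.13 (SE 0.07) and the adjusted p 0.216.

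**Figure D3:**
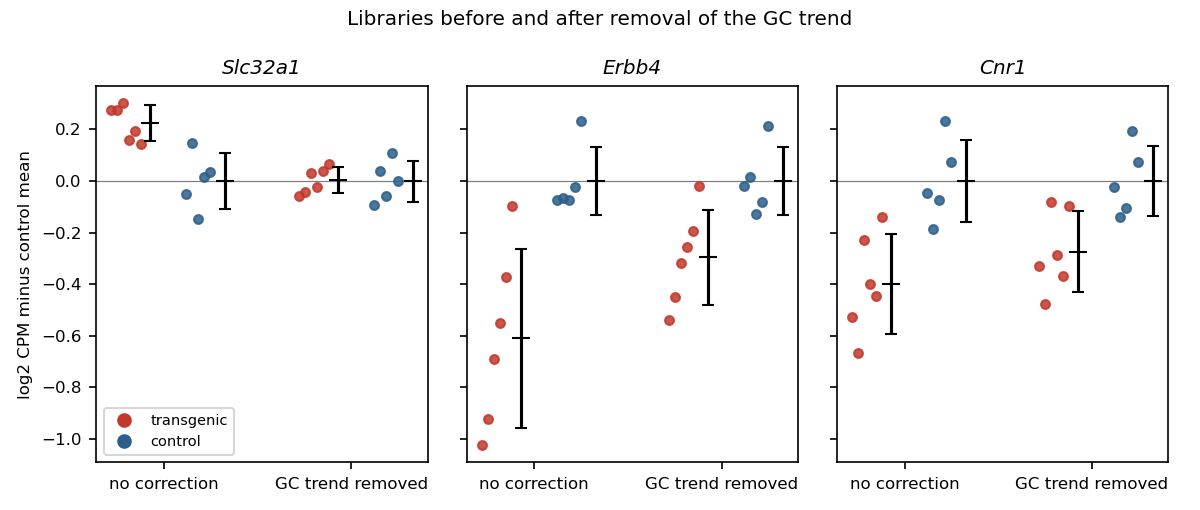
Log2 CPM of Slc32a1, Erbb4 and Cnr1 minus the control mean of the gene, before (left in each panel) and after (right) removal of each library's GC trend, with mean ± SD, transgenic (n = 6) left of control (n = 5). After the removal the Slc32a1 groups coincide, while 5 transgenic libraries of Erbb4 and 4 of Cnr1 stay below every control.

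**Figure D4:**
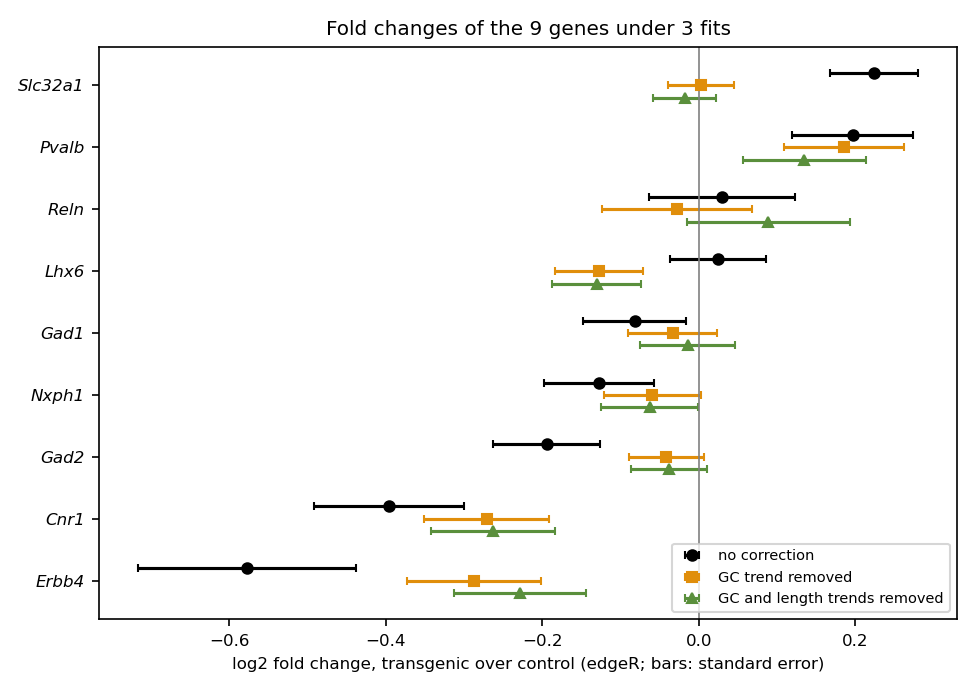
Log2 fold change, transgenic over control, with standard errors from edgeR for each gene in 3 fits (no correction, GC trend removed, GC and length trends removed). Erbb4 and Cnr1 stay below 0 in all 3, at -0.58 and -0.40 without correction, and Slc32a1 moves to 0. Lhx6 is below 0 in both corrected fits, and Reln only with the GC trend alone removed.

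Per kilobase of exon the order of the genes can be compared. In controls Gad1 was highest at 49.5 ± 2.96 RPKM, the CPM per kilobase of exon. Pvalb and Cnr1 followed at 40.8 ± 2.26 and 40.8 ± 4.57 RPKM and did not differ beyond their spread, and Gad2 was at 35.2 ± 2.17 RPKM. Slc32a1 stood at 26.1 ± 1.97 RPKM. Nxph1 at 10.03 ± 0.932 RPKM and Erbb4 at 9.28 ± 0.900 RPKM overlapped, as did Reln at 5.27 ± 0.308 and Lhx6 at 4.94 ± 0.266 RPKM. In transgenic libraries Pvalb (46.8 ± 5.44 RPKM) and Gad1 (46.8 ± 4.07 RPKM) stood level at the top. Next came Cnr1 at 31.0 ± 4.16, Gad2 at 30.7 ± 2.95 and Slc32a1 at 30.4 ± 1.43 RPKM, which overlapped, then Nxph1 at 9.16 ± 0.695 and Erbb4 at 6.20 ± 1.52 RPKM. Reln was at 5.37 ± 0.829 and Lhx6 at 5.03 ± 0.328 RPKM. Lengths are those of all annotated exons together, so genes whose long exons are little used in CA1 read too low. Among protein-coding genes tested, the control levels of the 9 lay between the 48.7th percentile (Lhx6) and the 95.1st (Gad1).

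How far the members varied together within the groups depended on GC removal. With the GC trend and the group means removed, 27 of the 28 pairs that leave out Pvalb had a Pearson r above 0 over the 11 libraries, with a median of 0.51. The highest was 0.82, between Gad2 and Nxph1. Of the 8 pairs with Pvalb 3 were above 0, with a median of -0.10 and a lowest value of -0.44, against Lhx6. Without GC removal 20 of the 28 pairs were above 0, with a median of 0.41, and Slc32a1 was below 0 with 6 of its 7 partners other than Pvalb. These are descriptions of 11 libraries that share the scaling and the removed trend. The same values over pairs of other genes are not given here. For 12572 genes, likeness to the mean profile of Gad1, Gad2 and Slc32a1 was ranked with the GC trend and the group means removed. Ak1, which encodes an adenylate kinase, had a Pearson r of 0.92 (Spearman rho 0.95). Ptn, the gene of the growth factor pleiotrophin, and Ssbp3 had an r of 0.91 each (rho 0.85 and 0.91), and Dcaf12l1 an r of 0.90 (rho 0.91). Without transgenic 6 and control 1, the libraries farthest from the median of that profile, r was 0.88 for Ak1, 0.78 for Ptn, 0.84 for Ssbp3 and 0.77 for Dcaf12l1. Among the other members Nxph1 ranked highest, at 0.71 (rank 286 of the 12572), and Pvalb lowest, at 0.21 (rank 3980). Without GC removal Nxph1 was again highest, at 0.71, but Lhx6 was lowest, at 0.22, with Pvalb at 0.25. On that scale Dcaf12l1 ranked 20, with an r of 0.83, and Ak1, Ptn and Ssbp3 ranked below it.

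Genes around the 9 in the same cells or pathways were read from 8 lists holding 120 tested genes. Of these 10 rose and 21 fell in transgenic CA1, or 25.8%, against 17.9% of all genes. With the GC trend removed 1 of the 120 was called, against 1.98% of all genes. The genes that fell had a median GC content of 41.7% and those that rose 55.4%.

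GABA handling and other interneuron markers. Of 15 genes of GABA synthesis, uptake and breakdown 1 rose and 1 fell. Slc38a3, a glutamine transporter of astrocytes, rose by 0.29 (adjusted p 0.0132) and was at 0.15 after GC removal. The GABA transaminase gene Abat, at 340 CPM in transgenic libraries and 339 CPM in controls, was not called. Of 24 further interneuron markers 2 rose and 1 fell. The peptide genes Cck and Cort rose by 0.32 and 0.52 (adjusted p 0.0143 and 0.0203), and the calcium buffer Calb1 fell by 0.53 (adjusted p 0.0440). After GC removal Cck was at 0.16, Cort at 0.33 and Calb1 at 0.04, on the other side of 0, and none was called. Cck and Calb1 are also expressed by pyramidal or granule cells. Cort was sparse, at 4.14 ± 0.694 CPM in transgenic libraries and 2.90 ± 0.291 CPM in controls. Somatostatin (Sst) was at 320 CPM in transgenic libraries and 248 CPM in controls (adjusted p 0.0799), and Vip at 27.1 and 28.5 CPM (adjusted p 0.601). Sst and Vip were named after their values were seen.

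Lineage factors and the fast-spiking class. Of 17 tested transcription factor genes and antisense RNAs of the interneuron lineage 1 rose and 4 fell, at a median log2 fold change of -0.14. Etv1 fell by 0.55 (SE 0.11), Dlx6os1 by 0.56 (SE 0.12) and Zeb2 by 0.39 (SE 0.10), at adjusted p of 0.0125, 0.0143 and 0.0204. Dlx6os1 overlaps Dlx6 on the other strand, and its reads cannot be separated without strand. With the GC trend removed these 3 were at -0.20, -0.12 and -0.06. Of 16 genes of fast spiking and of the perineuronal nets that wrap parvalbumin cells 1 rose and 4 fell. The net protein genes Bcan and Hapln1 went opposite ways, by 0.26 (adjusted p 0.0181) and -0.50 (adjusted p 0.0250). Ppargc1a, a transcriptional coactivator enriched in parvalbumin cells, fell by 0.34 (adjusted p 0.0250). After GC removal Bcan was at 0.05, Hapln1 at -0.17 and Ppargc1a at -0.09, and no gene of these 2 lists was called.

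Partners of the 3 signalling members. Of 14 tested neuregulin and ErbB genes none rose and 3 fell. The ligand genes Nrg3 and Btc fell by 0.26 (SE 0.06, adjusted p 0.0157) and 0.79 (SE 0.20, adjusted p 0.0221), and the protease gene Adam10 by 0.38 (SE 0.09, adjusted p 0.0152). Btc was sparse, at 0.721 ± 0.0526 CPM in transgenic libraries and 1.29 ± 0.429 CPM in controls. After GC removal Btc was at -0.33 and Adam10 at -0.15. Nrg3 was at 38.6 ± 3.08 CPM in transgenic libraries and 46.4 ± 1.93 CPM in controls. It was the only gene of the 8 lists still called with the GC trend removed, at -0.28 (SE 0.06, adjusted p 0.0390). That call was lost in 8 of 11 fits that left out a library, namely transgenic 1, 2, 3 or 4 or control 1, 3, 4 or 5, with values of -0.30 to -0.24 and adjusted p of 0.0177 to 0.1104 over the 11. Without GC removal Nrg3 was called in all 11. Of 16 reelin pathway genes 2 rose and 4 fell, and neither receptor gene, Vldlr (-0.19, adjusted p 0.0663) or Lrp8 (-0.11, adjusted p 0.273), was called. Rap1a, Pafah1b1 and Crk fell by 0.56, 0.28 and 0.23 (adjusted p 0.0117, 0.0274 and 0.0358). After GC removal Rap1a was at -0.17, Crk at -0.07 and Pafah1b1 at 0.03, on the other side of 0. The adaptor gene Dab1 was at -0.12 (adjusted p 0.0744).

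Endocannabinoid and neurexin genes. Of 13 tested endocannabinoid genes 3 rose and 2 fell, at a median of 0.17 that moved to 0.03 with the GC trend removed. Plcb1, a phospholipase C, fell by 0.26 (adjusted p 0.0119), the cyclooxygenase gene Ptgs2 by 0.63 (adjusted p 0.0393), and the phosphodiesterase gene Gde1 rose by 0.19 (adjusted p 0.0250). Mgll, which breaks down 2-arachidonoylglycerol, was called at 0.21 (adjusted p 0.0432). After GC removal Plcb1 was at -0.13, Ptgs2 at -0.26, Gde1 at 0.07 and Mgll at 0.07. Of 6 neurexin and neurexophilin genes 2 fell. Nrxn3 fell by 0.21 (SE 0.07, adjusted p 0.0411) and was at -0.17 after GC removal (adjusted p 0.157).

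**Figure D5:**
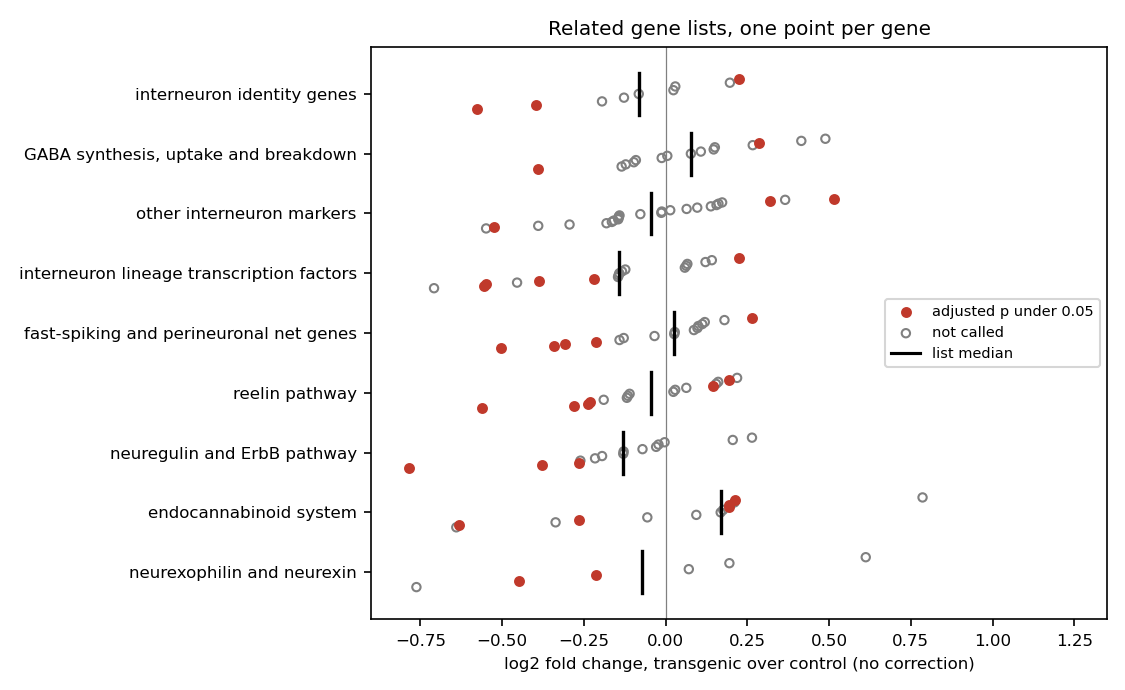
Log2 fold change, transgenic over control, of the 9 genes and of the tested members of 8 related lists, with 1 point per gene, filled where the adjusted p was under 0.05, and a bar at each list's median. Called genes lie on both sides of 0 in all lists except the neuregulin and neurexin ones, where the 3 and 2 called genes are below 0.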

How the data were processed

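The authors deposited raw counts per gene for each library. Build mm10 and the tools STAR 2.5.2b, Subread 1.5.1 with featureCounts, and FastQC 0.11.5 are named per the submitters' processing notes, without roles or settings. Per the labels' protocols the kit was TruSeq RNA v2, which does not mark strand, and reads were single-end, 50 bases. The authors also deposited tables of 1780 higher and 2014 lower genes with log2 fold changes, adjusted p-values and a normalized signal. By its values that signal is each count over 1 size factor per library.

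Symbols, positions, exon lengths and GC content came from GENCODE vM21 on the same build, which named 48349 of 48709 identifiers. Libraries of a group were not duplicates (chi-square over degrees of freedom 6.24 to 49.0). In R 4.3.3, edgeR 4.0.16 (filterByExpr, TMM, quasi-likelihood F test, no covariate) tested 17293 genes holding 99.9% of the counts. Log2 CPM used a prior count of 2. For GC removal, each library's deviations from the gene means were fitted by a lowess curve (span 0.3) on transcript GC content. The curve entered as an offset, for 17246 genes with a GC value. The edgeR fit without GC removal was tested on simulated counts, which held no GC trend. Alternatives were DESeq2 1.42.0, limma 3.58.1 voom, other scalings and filters, the replicate number as a block, the Xist level as a covariate, and leaving out each library. Leaving out each library with GC removal was added after seeing the data. The members and lists were chosen with earlier results of these data known. The named genes were the 9 members, Camk2d, up to 3 called genes of smallest p per related list, and the 6 genes most like the mean of Gad1, Gad2 and Slc32a1. Some of these are not reported here. Ndst4, Wfs1, Fibcd1, Abat, Vldlr, Lrp8, Dab1, Mgll, Sst, Vip, Ndnf and Calb2 were named after their values were seen. RefSeq start windows were matched by symbol for all 9 members. Depth per library sets counting error only.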

Additional observations from a re-analysis of the deposited data

Results flagged for a closer look

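Of 20 groups of values checked for a library standing apart from the rest of its group (the 9 genes and the Gad1 to Gad2 ratio in each genotype), 2 held one. Chance flags about 1 in 20 groups. Erbb4 was at 134 CPM in control 5, the library with the fewest counts, against 108 to 112 CPM in the other controls. Without control 5 Erbb4 was at -0.52 with an edgeR adjusted p of 0.0515. Reln was at 138 CPM in control 4, against 120 to 125 CPM in the other controls.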

How the results depend on the processing

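Of 17293 genes 3094 were called, 3 members and 31 genes of the related lists among them. GC removal left 342 genes, 0 members and 1 related gene, and GC and length removal 294, 0 and 1. By construction these fits remove what follows transcript GC content or length. Voom called 4774 genes, and without a filter 20 related genes were called. Leaving out each library gave 1155 (without control 4) to 4712 genes (without transgenic 6), 2 to 4 members and 12 to 48 related genes. With GC removal it gave 0 to 942 genes, 0 to 2 members and 0 to 4 related genes. Other scalings moved the split of calls, 1282 higher and 1812 lower, to 1573 and 1662 with upper-quartile scaling, and dropping the filter to 662 and 1407.

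Signs changed for 3 members, none of them called in the changed fit. Reln was at -0.0040 by voom, -0.028 after GC removal and 0.089 after GC and length removal. Without single libraries Reln was at -0.040 to 0.087, and at -0.11 to 0.025 without them after GC removal. Lhx6 was at -0.13 after GC removal and after GC and length removal, at 0.0041 to 0.054 without single libraries and at -0.16 to -0.092 without them after GC removal. Slc32a1 was at -0.018 after GC and length removal, at 0.19 to 0.26 without single libraries and at -0.019 to 0.031 without them after GC removal. The Gad1 to Gad2 difference was 0.10 to 0.14 without single libraries and 0.0077 after GC removal. Erbb4 ran from -0.71 to -0.23 and Cnr1 from -0.45 to -0.26 over the alternatives other than leaving out libraries. The cause was not tested.

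Same-numbered libraries did not deviate together (r -0.19 to 0.20, and 1 of 5 pairs was best with its own number). Transgenic 6 has no partner and adds nothing to the fold changes of block fits. With the replicate number as a block 4594 genes, 4 members (Gad2 in addition, -0.24, adjusted p 0.00458) and 51 related genes were called. In that setting Reln was at -0.044 and the Gad1 to Gad2 difference was 0.12 (exact sign-flip permutation p 0.125). With 5 pairs that two-sided permutation test cannot give a p under 0.05. The block with GC removal called 746 genes, 1 member (Erbb4, -0.35, adjusted p 0.0190) and 2 related genes, with Slc32a1 at -0.0099, Lhx6 at -0.13 and Reln at -0.11. Counting error limits sparse genes such as Btc, and control 5 was the shallowest library.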
